A study of Mus musculus with 8 samples.

Results

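Ly6a, Ly6d, Ly6e, Ly6c1 and Lypd8 are 5 genes of the Ly6 and uPAR family that were followed across wild-type (WT) and cancer cells of mouse small intestinal organoids. They were taken by their symbols from the 13420 genes of the read count table, and all 5 were found and passed the filter on low counts. The members were chosen by their levels in these same libraries, Lypd8 as high in WT and nearly absent in cancer cells and Ly6a as the reverse, so the levels in cancer relative to WT cells are given as a description without a test. WT organoids carried mTmG, a reporter giving membrane-bound tdTomato, on C57BL/6 and came from mice of 9 to 30 weeks. Cancer organoids carried Villin-CreERT2 and Apc fl/fl among other alleles on C57BL/6 (F6) and came from mice of 7 to 16 weeks. In these mice the Villin promoter drives an inducible Cre in gut epithelium, and Apc is lost. The cancer cells also carried Dendra2, the fluorescent protein used to sort them. Each kind of organoid was grown alone (pure) or aggregated at 2 parts WT to 1 part cancer cells (mixed), and live cells were sorted by color on day 3 and sequenced in bulk. Each of the 4 groups has 2 libraries, named by well. Pure WT cells are A01 and A05, WT cells from mixtures are A02 and A06, pure cancer cells are A03 and A07, and cancer cells from mixtures are A04 and A08.

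Ly6 and uPAR proteins share a small fold of 3 loops held by disulfide bonds, the 3-finger fold, and most are tethered to the outer cell membrane by a glycosylphosphatidylinositol (GPI) anchor. Ly6a encodes SCA1, a surface marker of mouse hematopoietic stem cells that also marks regenerating and fetal-like gut epithelium. Ly6c1 encodes a form of Ly6C, known from monocytes, T cells and endothelium, and both Ly6a and Ly6c1 can be induced by interferon. Ly6e is an interferon-induced member that alters the entry of several viruses, and Ly6d is a marker of stratified epithelia and of early B-lineage cells. Lypd8 is made by enterocytes and binds flagellated bacteria, keeping them away from the gut surface.

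Of the 5 genes, 4 lie on mouse chromosome 15 (GRCm38, GENCODE vM21). Ly6d spans chr15:74762056-74763620 on the minus strand, Ly6e chr15:74955051-74959905 on the plus strand, Ly6a chr15:74994877-74998031 and Ly6c1 chr15:75044018-75048830, both on the minus strand. Lypd8 lies apart, at chr11:58379043-58390728 on the plus strand. Ly6a and Ly6c1 share stretches of sequence with each other and with Ly6c2, a neighboring gene at chr15:75108158-75111970. The stretch below is the coding part of the first coding exon of each, read 5′ to 3′ from the GENCODE transcripts, and capitals mark bases that differ from Ly6a.
Ly6a: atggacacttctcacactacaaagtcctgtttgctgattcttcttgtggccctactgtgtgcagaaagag
Ly6c1: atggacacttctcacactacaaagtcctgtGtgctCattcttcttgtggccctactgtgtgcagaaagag
Ly6c2: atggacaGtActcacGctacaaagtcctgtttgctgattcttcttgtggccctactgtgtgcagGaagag
These 70 bases lie at chr15:74997535-74997604 for Ly6a, chr15:75048442-75048511 for Ly6c1 and chr15:75111598-75111667 for Ly6c2, all on the minus strand. Ly6c1 differs from Ly6a at 2 of the 70 bases and Ly6c2 at 4. Over the whole coding sequence without the stop codon, Ly6a and Ly6c1 were 81.8% identical and Ly6c1 and Ly6c2 97.7%.

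CEL-Seq, the method used here, reads the 3′ end of each transcript, so likeness there matters most for counting. Within the last 500 bases of its transcripts, Ly6a had 66 of 812 windows of 50 bases (8.13%) that also occur in another gene, among them Ly6c1, Ly6c2 and Ly6i. Ly6c1 shared 487 of 1667 windows (29.2%), with Ly6a, Ly6c2 and Ly6i. Ly6d, Ly6e and Lypd8 shared 0 windows with any other gene. Reads that mapped equally well to several places had been discarded by the authors, so the counts of Ly6a and Ly6c1 are less certain than those of the other 3 genes.

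The libraries held between 73109 reads on genes (A02) and 4733121 (A04), a 64.7-fold range, and counts in both libraries of a group differed by more than counting error in every group (chi-square per degree of freedom of 4.70 to 9.37). Whether both libraries of a group come from separate cultures is not stated in the sources used here, so spreads and p-values may cover technical variation only. The 3′ counts cannot check the recombined Apc allele. Of 8 tested genes of a list on the feedback of Wnt signaling, Notum and Nkd1 were higher in pure cancer than in pure WT cells (log2 fold change 6.38 and 4.40, adjusted p = 2.58e-04 and 1.43e-04, edgeR) and Ascl2 was lower (−2.00, adjusted p = 0.0437, edgeR). Of the 8 values 4 were positive, and Axin2 (−0.91), Sp5 (−1.88) and Lgr5 (−1.32) had negative values that did not pass the test. Between mixed cancer and mixed WT cells 4 of the 8 were higher, Axin2, Notum, Nkd1 and Tnfrsf19, and 0 lower. Of all tested genes 5.11% were called higher and 4.84% lower in the pure comparison, and 2.01% and 4.41% in the mixed one. Notum, Nkd1 and Tnfrsf19 had at most 2 reads in a mixed WT library, so a lower call was hardly possible for them. Markers of intestinal epithelium were found for 11 of 11 listed genes and summed to between 4949 and 19225 CPM (reads scaled to a common total after normalization). Cdx1, 1 of these markers, had 0 reads in both pure cancer libraries. By edgeR, Cdx1 and Lgals4 were lower in pure cancer than in pure WT cells, where 4.84% of all tested genes were called lower. Krt8, Krt20, Cdx1, Cdx2 and Lgals4 were lower in mixed cancer than in mixed WT cells, against 4.41% of all genes. In both comparisons 0 markers were higher. Of the listed markers of other cells, 4 of 11 for immune cells, 1 of 7 for endothelium and 2 of 8 for fibroblasts were counted in the table. Their sums reached at most 71.8 CPM, 13.1 CPM and 5.25 CPM in any library. Of the 4 immune markers counted, Csf1r and Coro1a had 0 reads in all WT libraries. Laptm5 had 1 read in A06, and Cd68 had 1 read in each of A01, A05 and A06. Cd68, a lysosomal marker of macrophages, was higher in pure cancer cells (by 5.52 on the log2 scale, adjusted p = 0.0154, edgeR), a call that rests on A07, with 23 reads there, 0 in A03 and 1 in each pure WT library. Its part in the levels of Ly6a and Ly6c1, which immune cells also express, was not tested.

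Lypd8 was the member of WT cells. It had 1743 and 952 CPM in pure WT cells (A01 and A05) and 4457 and 7800 CPM in mixed WT cells (A02 and A06). In cancer cells it was down to 1 and 3 reads in the pure libraries, or 5.25 and 8.98 CPM (A03 and A07), and to 90 reads and 1 read in the mixed libraries, or 17.6 and 5.19 CPM (A04 and A08). Every WT library thus lay far above every cancer library. The group mean was 1347 ± 559 CPM in pure WT cells (SD, n = 2) against 7.11 ± 2.64 CPM in pure cancer cells, a 189-fold difference with a 95% counting interval of 64.1 to 603 from the pooled counts. In mixed cells the means were 6129 ± 2364 CPM in WT and 11.4 ± 8.78 CPM in cancer cells, which differ 538-fold by group means. The pooled counts, which give A04 the most weight, have a 95% counting interval of 346 to 530. On the log2 scale this difference was −8.66 in the edgeR fit, −10.18 without A04 and −6.19 with barcode counts. Both cancer groups overlapped each other. The reads include amplification copies, so this interval and the others given with counts cover counting error only.

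RefSeq promoter windows were matched for 2 of the 5 members, Lypd8 and Ly6c1. The 250 bases before the first start of Lypd8 are shown because this gene set mixed WT and mixed cancer cells furthest apart (chr11:58378782-58379031, GRCm38.p6, plus strand, 5′ to 3′).
Lypd8: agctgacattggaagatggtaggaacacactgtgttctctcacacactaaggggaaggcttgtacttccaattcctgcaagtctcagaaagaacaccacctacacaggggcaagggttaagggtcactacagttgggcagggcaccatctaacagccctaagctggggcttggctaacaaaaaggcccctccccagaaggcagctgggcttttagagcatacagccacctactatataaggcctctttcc
Neither this window (with 50 further bases) nor either window of Ly6c1 held TGANTCA (AP-1), GAAANNGAA (interferon response), TTCNNNGAA (GAS, bound by STAT factors) or GGAATG (TEAD) on either strand. A second Lypd8 window, at chr11:58380396-58380695 on the plus strand, held GGAATG once. Among all 32851 promoter windows of this length, 7.81% held TGANTCA, 8.56% GAAANNGAA, 8.30% TTCNNNGAA and 14.7% GGAATG.

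Ly6a had the opposite pattern. It had 114 and 46.7 CPM in pure WT cells and 459 and 1969 CPM in mixed WT cells. Cancer cells had 4167 and 7429 CPM when pure and 3511 and 7340 CPM when mixed. The cancer groups overlapped with each other, both lay above mixed WT cells, and mixed lay above pure WT cells, with no overlap in either of these steps. The mean of 5798 ± 2306 CPM in pure cancer cells was 72.0-fold that of 80.5 ± 47.9 CPM in pure WT cells (SD, n = 2 each). In mixed cells this ratio was 4.47, with 5426 ± 2707 CPM in cancer and 1214 ± 1068 CPM in WT cells.

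Ly6c1, whose first coding exon is nearly that of Ly6a, was almost without reads in WT cells. Pure WT libraries had 1 read each and mixed WT libraries 1 and 2 reads, which does not exceed the floor of 3 reads per group. The single read of A02, the smallest library, corresponds to 13.1 CPM with 95% counting limits of 0.332 to 73.0 CPM. Cancer libraries had 13 and 69 reads when pure (68.2 and 207 CPM) and 450 and 35 reads when mixed (88.1 and 182 CPM). The cancer groups overlapped and all cancer libraries had more CPM than all WT libraries.

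Ly6e was present in every library, and the WT groups overlapped as did the cancer groups. It had 137 and 116 CPM in pure WT cells and 39.3 and 272 CPM in mixed WT cells. The lower of these mixed values rests on 3 reads, with limits of 8.11 to 115 CPM. Pure cancer cells had 782 and 1706 CPM and mixed cancer cells 1436 and 2153 CPM. The mean in pure cancer cells, 1244 ± 653 CPM, was 9.83-fold that in pure WT cells, 127 ± 15.2 CPM (SD, n = 2 each).

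Ly6d was the one member whose highest level was in mixed WT cells and whose lowest was in pure WT cells. Pure WT libraries had 8 and 6 reads (7.32 and 3.37 CPM), whereas mixed WT libraries had 15 and 163 reads (197 and 369 CPM). Pure cancer cells had 142 and 126 CPM and mixed cancer cells 89.6 and 156 CPM. Both mixed WT libraries were above all 4 cancer libraries, which overlapped between groups. The mean of 283 ± 122 CPM in mixed WT cells was 2.12-fold that of 134 ± 11.3 CPM in pure cancer cells (SD, n = 2 each), while pure WT cells were at 5.35 ± 2.79 CPM. Relative to WT cells, Ly6d was therefore 25.0-fold higher in pure cancer cells but 2.31-fold lower in mixed cancer cells.

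**Figure D1:**
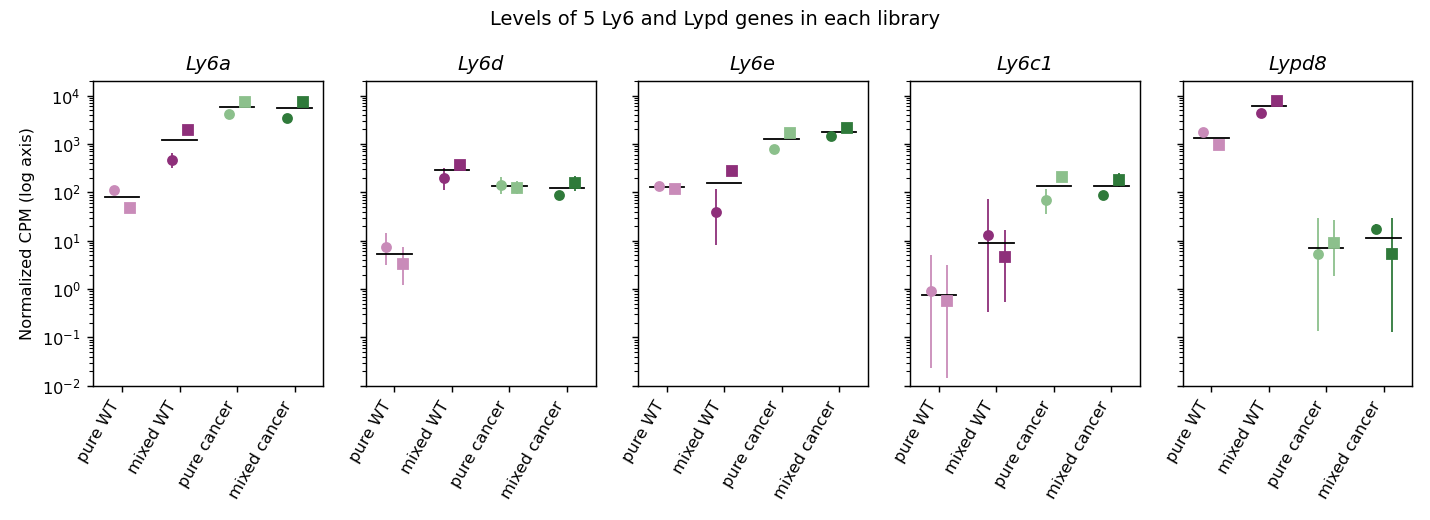
Normalized CPM (log axis) of the 5 genes in each of the 8 libraries, with 1 panel per gene and 1 column per group. Circles are A01 to A04 and squares A05 to A08, bars are 95% counting limits and black lines are group means of 2 libraries. Lypd8 falls from 1347 CPM in pure WT to 7.11 CPM in pure cancer cells, the other 4 genes are higher in cancer than in pure WT cells, and Ly6d is highest in mixed WT cells at 283 CPM.

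The next question was how each gene changed when WT cells shared organoids with cancer cells. Ly6d, Ly6a and Lypd8 rose in mixed WT cells, while Ly6e and Ly6c1 did not pass the test. Ly6d had a log2 fold change of 5.82 (SE 0.680, adjusted p = 6.31e-05, edgeR over all 8 libraries), Ly6a one of 3.96 (SE 0.604, adjusted p = 0.00134, edgeR) and Lypd8 one of 2.19 (SE 0.447, adjusted p = 0.0199, edgeR). Each of these rises was seen in both mixed libraries, which were above both pure libraries. The genes marking WT and cancer cells at their extremes, Lypd8 and Ly6a, thus went up together. In bulk RNA, more expressing cells and more RNA per cell cannot be told apart. Of the 5264 genes tested, 0.646% were called higher and 0.095% lower in mixed WT cells, against 3 of the 5 members called higher. The study itself singled out Ly6 genes on these WT libraries, so this count is not independent evidence.

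The calls for Ly6a and Lypd8 rested on few libraries. Without mixed WT library A06, the rise of Ly6a was 2.43 on the log2 scale (adjusted p = 0.0860, edgeR), and its adjusted p ranged from 5.70e-16 to 0.336 over the settings tried. Lypd8 lost its call without A06 (1.64, adjusted p = 0.178, edgeR) or without pure WT library A05 (1.85, adjusted p = 0.279, edgeR), with a range of 1.39e-05 to 0.279. Ly6d passed in all 17 alternatives, with an adjusted p of at most 0.00162 (edgeR or DESeq2).

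Ly6e changed by 0.50 (SE 0.547, adjusted p = 0.834, edgeR) in mixed WT cells, and the 95% interval of this change ran from −0.57 to 1.57 on the log2 scale. Its mixed libraries lay on either side of the pure ones. Ly6c1 is given no fold in WT cells because both groups had no more reads than the floor (adjusted p = 0.528, edgeR).

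In cancer cells mixing changed none of the 5 members by edgeR's test. The adjusted p was 1 for each, 0 members passed at an unadjusted p under 0.05, and DESeq2 on 8 or on 4 libraries also called 0. The background was the same, with 0% of tested genes called higher and 0% lower. The log2 fold changes were −0.10 (SE 0.528) for Ly6a, −0.11 (SE 0.651) for Ly6c1, −0.18 (SE 0.556) for Ly6d, 0.52 (SE 0.518) for Ly6e and 0.99 (SE 0.784) for Lypd8. Their 95% intervals were wide, for example −1.13 to 0.94 for Ly6a, −1.27 to 0.91 for Ly6d and −0.55 to 2.52 for Lypd8.

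The difference between both changes was called for Ly6d and Ly6a. Ly6c1 is given no difference because of its few WT reads (adjusted p = 0.717, edgeR). The change on mixing was larger in WT than in cancer cells by 5.99 on the log2 scale for Ly6d (SE 0.864, adjusted p = 0.00224, edgeR) and by 4.06 for Ly6a (SE 0.785, adjusted p = 0.0386, edgeR). In this comparison 0.076% of tested genes were called higher and 0% lower, so that Ly6d and Ly6a made up 2 of 4 calls. For Ly6a the call was lost without mixed cancer library A04 (3.60, adjusted p = 0.0517, edgeR) or without A06 (2.53, adjusted p = 0.186, edgeR), over a range of 1.66e-08 to 0.439. Lypd8 had a difference of 1.20 (SE 0.981, 95% interval −0.72 to 3.13, adjusted p = 0.853, edgeR). Its rise in WT cells was thus not shown to differ from its uncalled change in cancer cells. The cancer side rests on 1 and 3 reads when pure and 90 reads and 1 read when mixed, so this test could hardly separate Lypd8. Ly6e differed by −0.02 (SE 0.770, adjusted p = 1.00, edgeR).

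**Figure D2:**
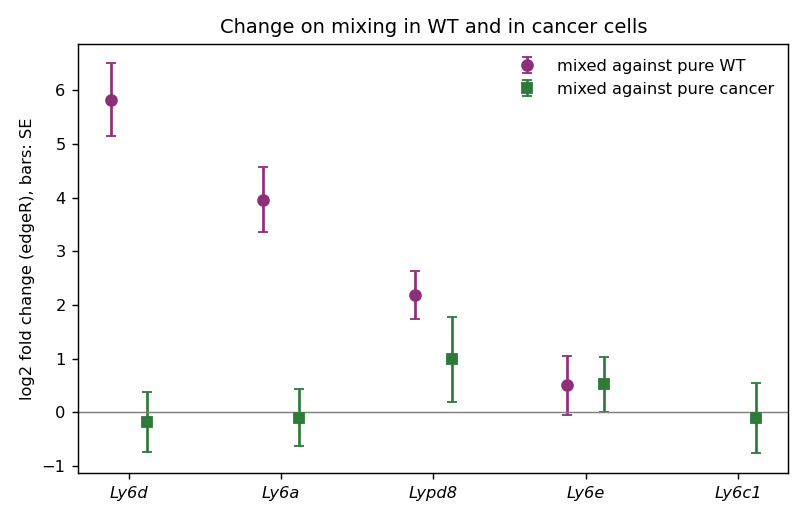
Log2 fold change on mixing (edgeR, bars are SE) of each gene in WT cells (circles) and in cancer cells (squares). Ly6d at 5.82, Ly6a at 3.96 and Lypd8 at 2.19 lie above 0 in WT cells, all 5 cancer values are between −0.18 and 0.99, and Ly6c1 has no WT value because it had too few reads.

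Since Lypd8 and Ly6a mark opposite populations, their reads were set against each other within each library, where depth and scaling cancel. The value compares libraries and not the abundance of both genes. Pure WT libraries had 15.2 and 20.4 Lypd8 reads per Ly6a read and mixed WT libraries 9.71 and 3.96. Pure cancer libraries had 0.00126 and 0.00121 and mixed cancer libraries 0.00502 and 7.07e-04. Mixed WT cells thus lay below both pure WT libraries, as Ly6a rose more than Lypd8, but stayed far above every cancer library. Ly6d behaved otherwise, with 6.40 and 7.23 Ly6d reads per 100 of Ly6a when WT cells were pure, 42.9 and 18.8 when they were mixed, and 1.69 to 3.40 in the 4 cancer libraries. Mixed WT libraries held more Ly6d per Ly6a read than any other library.

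**Figure D3:**
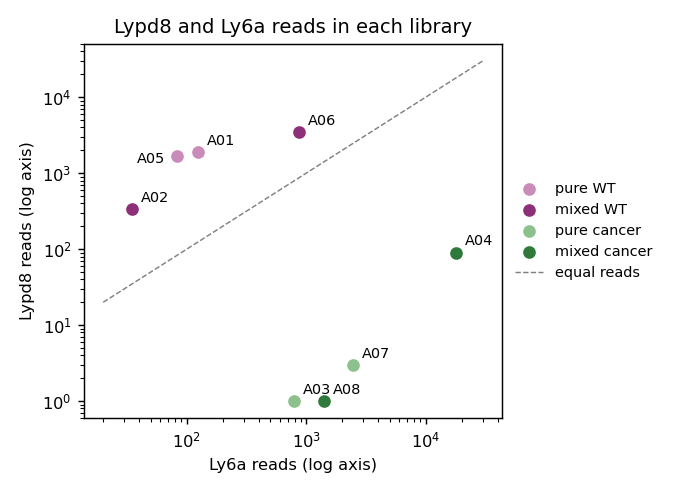
Lypd8 reads against Ly6a reads (both log axes), with 1 point per library, colored by group and named by well. The 4 WT libraries lie above the dashed line of equal reads, at 3.96 to 20.4 Lypd8 reads per Ly6a read, and the 4 cancer libraries lie below it at no more than 0.00502.

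How far mixed WT cells moved toward the cancer level was measured as the share of the gap between pure WT and pure cancer cells. Beside the members stood 14 reference genes, which had at least 100 CPM in both pure cancer libraries and at most 5% of that mean in pure WT cells. These reached a median of 1.48% of the gap, with quartiles of −0.12% and 3.68%, and the median was 4.98% without pure WT library A01. Ly6a reached 19.8%, or 40.0% with barcode counts, and 2 of the 14 reference genes were at or above 19.8%. Ly6d reached 216%, above all 14. Ly6e reached 2.60%, with 5 reference genes at or above it. With means of 127 CPM in pure WT and 1244 CPM in pure cancer cells, Ly6e itself misses the 5% limit set for the reference genes. Its place among them is therefore only a rough guide. Ly6c1 is given no share because of its few WT reads.

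By library, Ly6a reached 6.62% in A02 and 33.0% in A06, and Ly6d 149% and 284%. For Ly6e the values were −7.80% in A02, below all 14 reference genes, and 13.0% in A06. The mirror of this share for Lypd8, the part of the WT level found in mixed cancer cells, was 0.320%, or 1.77% with barcode counts. It was 0.783% in A04, where the gene had 90 reads, and −0.14% in A08. The median of 49 reference genes of WT cells was 0.127%, and 15 of them were at or above Lypd8. How much carried-over RNA or missorted cells add to these shares was not tested.

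Few other members of the family had enough reads for a test. Of 44 further Ly6 and uPAR family genes listed, 18 were in the table and 4 passed the filter: Ly6c2, Lypd2, Psca and Plaur. Mixing changed 0 of the 4 in WT and 0 in cancer cells by edgeR, with 2 in WT and 0 in cancer cells at an unadjusted p under 0.05, and DESeq2 called 0 in either. Over all 5264 tested genes, 509 in WT and 69 in cancer cells had an unadjusted p under 0.05. The log2 fold change in WT cells was 2.35 (SE 0.959) for Plaur, the urokinase receptor, and 3.33 (SE 1.56) for Psca, a GPI-anchored protein named after prostate stem cells. All 4 had a positive value in WT cells, with a median of 3.45, or 2.84 with Ly6c2, which had 0 reads in pure WT cells, at its lower bound. For Ly6c2, Lypd2 and Psca these values rest on 1, 3 and 7 reads in A06, with 0 reads in A02. Ly6c2 and Lypd2 did not exceed the floor of 3 reads in either WT group, so the signs and the median are uncertain. The median over all tested genes was −0.10.

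Of these 4 genes, 2 were higher in pure cancer than in pure WT cells, where 5.11% of all tested genes were called higher and 4.84% lower. Ly6c2 had 0 reads in both pure WT libraries and 0 and 15 reads in pure cancer cells (adjusted p = 0.0138, edgeR), so the call rests on A07. Lypd2 had 1 read in A01, 0 in A05, 4 in A03 and 19 in A07 (adjusted p = 0.00210, edgeR). Both genes passed the filter on low counts only through cancer libraries, so a call in the lower direction was hardly possible. The count of 2 is thus a description and cannot be weighed against the share of all genes. Ly6c2 also shared 255 of 733 windows of its 3′ end (34.8%) with other genes. Between mixed cancer and mixed WT cells 0 of the 4 were called, with 2.01% of all tested genes called higher and 4.41% lower. Lypd3, a cell adhesion protein, was too low for the test, with 0 reads in all 4 WT libraries and in A03, and 102, 6 and 5 reads in A04, A07 and A08.

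The enzymes that build and attach GPI anchors were not among the called genes on mixing. Of 31 listed genes, 30 were in the table and 13 were tested. In either mixing comparison 0 were called by edgeR and by DESeq2, and 0 had an unadjusted p under 0.05. Their median change in WT cells was 0.03, with 7 of 13 positive. Between cancer and WT cells 1 of the 13 was called lower and 0 higher, both pure and mixed. Over all tested genes 4.84% were called lower between pure and 4.41% between mixed cells, so this single call says little about the list. It was Tmem8, whose product acts on GPI-anchored proteins. Its log2 fold change was −3.59 in pure (SE 1.10, adjusted p = 0.0382, edgeR) and −3.41 in mixed cells (SE 0.941, adjusted p = 0.0267, edgeR).

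Interferon-induced genes were counted because several Ly6 genes respond to interferon. Of 25 listed genes 23 were in the table and 12 were tested. In mixed WT cells Irf7, a transcription factor of the interferon response, Rtp4 and Xaf1 were higher and 0 were lower. Of all tested genes 0.646% were called higher and 0.095% lower. Of the 12 values 11 were positive, with a median of 3.46 on the log2 scale. Irf7 had 2 reads in A01, 1 in A05, 0 in A02 and 27 in A06 (adjusted p = 0.0399, edgeR). Rtp4 had 0 reads in A01 and A05 and 2 and 18 in A02 and A06 (adjusted p = 0.0284, edgeR), and Xaf1 had 0, 0, 1 and 17 reads in the same order (adjusted p = 0.0294, edgeR). These low counts come mostly from A06, and without it, or without A05, 0 of the list were called. Irf7, Rtp4 and Xaf1 had at most 2 reads in a pure WT library and passed the filter through other libraries. A call in the lower direction was hardly possible for them, so the counts are a description. In cancer cells mixing changed 0 of the 12. Between mixed cancer and mixed WT cells 1 of the 12 was higher and 1 lower, against 2.01% and 4.41% of all tested genes. Ifitm3, which restricts viral entry as Ly6e can alter it, was higher (log2 fold change 2.48, SE 0.527, adjusted p = 0.00326, edgeR). It was also the 1 tested gene of the list with a negative change in mixed WT cells (−1.10). B2m, the light chain of class I antigen presentation, was lower (−1.80, SE 0.482, adjusted p = 0.0215, edgeR). In pure cancer cells Irf7, Bst2, Rtp4 and Xaf1 were higher than in pure WT cells and 0 were lower, against 5.11% and 4.84% of all tested genes. Each of these had at most 2 reads in a pure WT library.

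Markers of fetal-like and repairing gut epithelium, a state that Ly6a is known to mark, rose in part. Of 23 listed genes, Ly6a itself not among them, 18 were tested. In mixed WT cells 6 were higher and 0 lower, against 0.646% and 0.095% of all tested genes. Of the 18 values 17 were positive, with a median of 2.31. Those called were Anxa1, Anxa3, Anxa10, S100a6, Msln and F3. The study singled out annexins on these same WT libraries, so this count is not independent evidence. Anxa10 had 139 and 67.4 CPM in pure WT and 1337 and 1312 CPM in mixed WT cells (log2 fold change 3.69, SE 0.514, adjusted p = 4.30e-04, edgeR), but only 0 to 5.25 CPM in cancer cells. S100a6, a calcium-binding protein, had 1653 and 868 CPM in pure WT and 3618 and 6396 CPM in mixed WT cells (1.99, SE 0.409, adjusted p = 0.0199, edgeR). The list count was 9 without A02, 2 without A05 and 1 without A06. In cancer cells mixing changed 0 of the 18. Between pure cancer and pure WT cells 11 of the 18 were higher, among them Anxa1, Anxa3, S100a6 and Msln, and 1, Anxa10, was lower. Between mixed cells 2 were higher and 3 lower. Of all tested genes 5.11% were called higher and 4.84% lower between pure, and 2.01% and 4.41% between mixed cells. Spp1, Il33 and Ctgf, 3 of the 11, had at most 5 reads in a pure WT library, so a lower call was hardly possible for them.

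Lypd8 is an enterocyte gene, so mature enterocyte genes were set beside it. Of 24 listed genes 13 were tested, and mixing changed 0 in WT and 0 in cancer cells by edgeR, with 1 and 0 at an unadjusted p under 0.05. The 1 in WT cells was Alpi, the intestinal alkaline phosphatase. It had 450 and 376 CPM in pure and 800 and 918 CPM in mixed WT cells. The median change of the 13 in mixed WT cells was −0.18, with 6 of 13 positive, against the rise of 2.19 of Lypd8. In pure cancer cells 10 of the 13 were lower than in pure WT cells and in mixed cancer cells 11 were lower than in mixed WT cells. Among them were Alpi and Fabp2, a carrier of fatty acids. Over all tested genes 4.84% were called lower in the pure and 4.41% in the mixed comparison. The called enterocyte genes passed the filter through WT libraries, so a call in the other direction was hardly possible and these counts are a description. The low level of Lypd8 in cancer cells thus went with low levels of most enterocyte genes, but its rise on mixing did not go with a called change in them.

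The genes most like each member were found by the root mean square difference of centered log2 CPM over the 8 libraries, among 2744 genes with at least 50 reads per library on average. For Ly6a they were Ctgf (0.779), a target of YAP, Anxa3 (0.781) and Ier3 (0.785), against a median of 2.71 over all genes compared. For Lypd8 they were Prap1 (0.699), a secreted protein of enterocytes, Zg16 (0.970), a lectin of goblet cells, and Cck (0.971), a hormone of enteroendocrine cells, against a median of 4.26. Prap1 went from 956 ± 576 CPM in pure WT to 3745 ± 728 CPM in mixed WT cells and was at 6.74 ± 5.31 CPM in pure cancer cells (SD, n = 2 each).

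For Ly6d the nearest genes were Ifi27l1 (0.588), Ctse (0.939), which encodes cathepsin E, and Capg (0.947), an actin capping protein. Ifi27l1 rose from 6.75 ± 0.805 CPM in pure WT to 160 ± 78.0 CPM in mixed WT cells and had 157 ± 15.1 CPM in pure cancer cells, so it was near the cancer level where Ly6d was above it. For Ly6c1 they were Wfdc2 (0.584), Stra6 (0.744) and Rarg (0.793), and for Ly6e Trim47 (0.451), Igfbp4 (0.474) and Wnt7b (0.490). With a prior count of 10 in place of 2, all 3 neighbors of Ly6d, 2 of Ly6a and of Ly6e, 1 of Lypd8 and 0 of Ly6c1 stayed among the nearest 3. The points of this measure share depth and group, so it is a description.

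**Figure D4:**
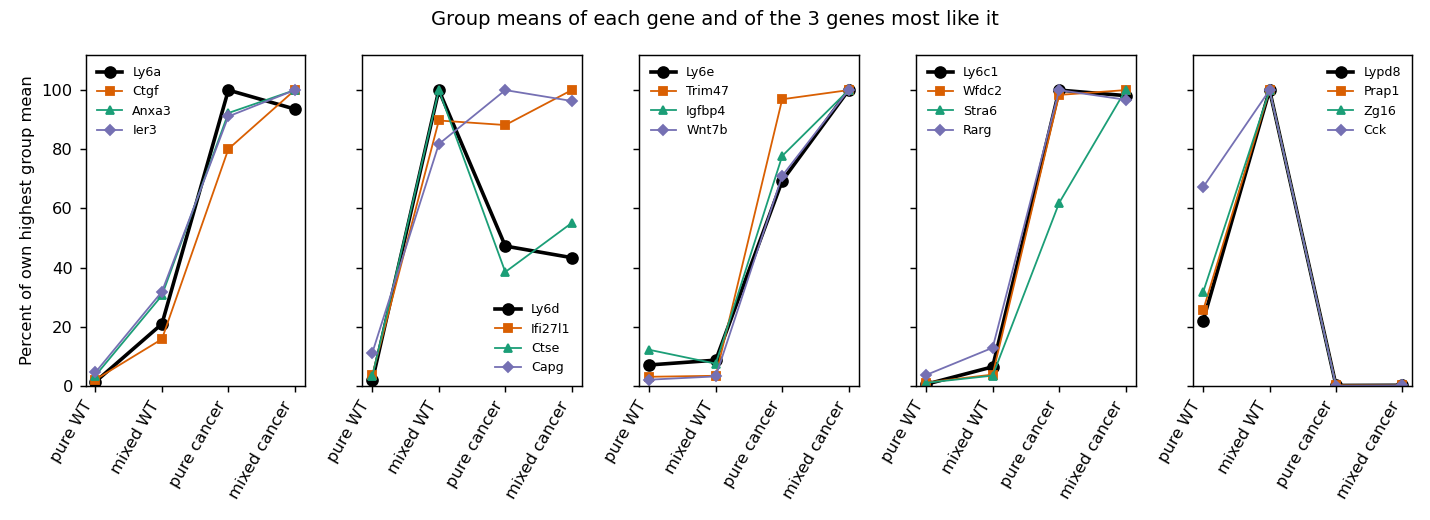
Group means of each member (black) and of its 3 nearest genes (colored), each as percent of its own highest group mean, over the 4 groups of 2 libraries. Ly6a and its neighbors step up from WT to cancer cells, Ly6d and Ctse peak in mixed WT cells, Ly6e and Ly6c1 are low in both WT groups, and Lypd8 and its neighbors peak in mixed WT cells and are near 0 in cancer cells.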

How the data were processed

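Bulk RNA of 8 libraries was analysed, 2 in each of 4 groups set by the labels. Part of the cancer genotype is not reported here. The authors aligned read 2 of CEL-Seq pairs to the mm10 RefSeq transcriptome with BWA, discarded reads mapping equally well to several places and counted reads per gene with featureCounts (versions not given in the sources used here). The deposited read counts per gene are not normalized and include amplification copies. The authors also deposited barcode counts, which level off at 256 different barcodes, and expected counts of transcripts made from them, which were rounded here. A table with the authors' DESeq2 1.22.2 comparison of WT cells was not used.

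Read counts were tested with edgeR 4.0.16 in R 4.3.3 (filterByExpr with a minimum count of 10, TMM factors, quasi-likelihood fit of 4 group means over 8 libraries). The threshold for a call was an adjusted p of 0.05 (Benjamini-Hochberg over 5264 tested genes), and the 2 rows that name no mouse gene were left out. The method was tested on simulated data. Standard errors were taken as the size of the log2 change over the root of F. Counting intervals are exact 95% Poisson or binomial limits. The floor is 3 reads over a group.

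The members and lists were chosen with earlier results of these data known. Named genes were the members, tested family genes, called genes of the lists, genes sharing 3′ sequence with a member and the 3 genes nearest to each member (log2 CPM with a prior count of 2). Irf7, Tmem8, Anxa10 and S100a6 are examples of called genes. Lypd3 was singled out after its reads were seen. Alternatives were barcode or transcript counts, a minimum count of 50 or no filter, upper-quartile or RLE factors, only the 4 libraries compared, DESeq2 1.42.0, and each library left out. For the lists, DESeq2 and leaving out libraries were added after seeing the data. Sequences came from GENCODE vM21 and RefSeq (GRCm38.p6), and coding sequences were aligned with Biopython 1.88.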

Additional observations from a re-analysis of the deposited data

Results flagged for a closer look

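By edgeR's test of the difference itself, Ly6d and Ly6a responded to mixing to a different extent in WT and in cancer cells. The response was larger in WT cells by 5.99 on the log2 scale for Ly6d (adjusted p = 0.00224, edgeR) and by 4.06 for Ly6a (adjusted p = 0.0386, edgeR). The call for Ly6a was lost with barcode counts, transcript counts or a minimum count of 50, and without A04 or A06. Ly6d kept its call in each of these settings. In WT cells both mixed libraries were above both pure libraries for either gene, and in cancer cells the groups overlapped.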

How the results depend on the processing

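No paired fit was made, since no label ties a well to another well of the same culture. Ly6d kept its call on mixing in WT cells in all 17 alternatives and in the difference in all 15. With barcode counts the change in WT cells was 2.69 for Ly6a and 2.21 for Lypd8 (log2), neither called, and the members called fell from 3 to 1. Barcodes level off at 256, which was reached by Ly6a and Ly6e in A04. The difference for Ly6a was 3.17 with barcode counts, 3.86 with transcript counts and 4.12 with a minimum count of 50, none of them called, and the members called fell from 2 to 1 in each. With single libraries left out, the change in WT cells ranged from 2.43 to 4.73 for Ly6a, from 1.64 to 2.69 for Lypd8 and from −1.77 to 1.06 for Ly6e, and the members called from 1 to 3. The difference then ranged from 2.53 to 4.80 for Ly6a and from −2.29 to 0.55 for Ly6e, and the members called from 1 to 2. The change in cancer cells ranged from −0.66 to 0.42 for Ly6a, −0.68 to 0.97 for Ly6c1, −0.50 to 0.24 for Ly6d and −0.51 to 1.61 for Lypd8. Uncalled values that changed sign otherwise were those of Ly6d in cancer cells (0.055 with barcode, 0.089 with transcript counts), Ly6e in cancer cells (−0.18 with barcode counts) and the difference for Ly6e (0.54 with barcode counts, 0.14 with transcript counts, 0.062 with RLE factors, 0.038 with a minimum count of 50, 0.0025 with DESeq2). The cause was not tested. Relative to pure WT cells, pure cancer cells had a log2 fold change of 6.18 for Ly6a and −7.46 for Lypd8 with reads but 3.85 and −4.78 with barcodes.

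Over all tested genes, 39 were called in WT cells on mixing, against 93 with barcode counts, 82 with transcript counts, 68 without a filter, 108 with 4 libraries and 66 with DESeq2, and 2 to 118 with single libraries left out. For the difference, 4 calls became 23, 10, 10 and 13 with barcode counts, transcript counts, no filter and DESeq2, and 1 to 32 without single libraries. With a minimum count of 50, calls between pure cancer and pure WT cells fell from 524 to 232 and between mixed groups from 338 to 151. Without single libraries they ranged from 261 to 745 and from 167 to 506. The interferon list had 0 calls in WT cells with a minimum count of 50, where 3 of its genes were tested, and 1 with DESeq2. Depth limits the values of A02, where 1 read is 13.1 CPM.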
